A study of Homo sapiens with 10 samples.

Results

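The genes described here are ATF4 and 9 genes of the integrated stress response, 10 in all, taken as a named list and not by any measured value: ATF4, ATF3, DDIT3, DDIT4, TRIB3, ASNS, PSAT1, PHGDH, PPP1R15A and PPP1R15B. Of these, 7 were among the 6914 usable genes of the expression table, and all 7 were among the 6782 genes tested. DDIT3, ASNS and PSAT1 were not in that table, so they have no footprint or mRNA value here. The cells were HCT116, a human colorectal carcinoma line, and the series asked which mRNAs depend on YTHDF1 for translation. YTHDF1 reads m6A, the N6-methyladenosine mark that cells place on mRNA, and is found in the cytoplasm.

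In the integrated stress response, kinases that sense amino acid shortage, misfolded protein, double-stranded RNA or haem shortage phosphorylate the initiation factor eIF2, which lowers protein synthesis in general. The ATF4 mRNA carries short upstream reading frames that let its main reading frame be translated better when eIF2 is phosphorylated, so ATF4 is known as a gene controlled in translation more than in transcription. The ATF4 protein then switches on genes for amino acid synthesis and uptake, further transcription factors and feedback regulators, among them PPP1R15A, which brings a phosphatase to eIF2.

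Ribosome profiling, which sequences mRNA fragments protected by ribosomes, covered 1 control library and 2 knockdown libraries, and mRNA-seq covered 1 control and 2 knockdown libraries. The control carried a hairpin against GFP, per the file headers, and the knockdown a hairpin against YTHDF1, with titles naming shY1-1 and shY1-2, here knockdown 1 and knockdown 2. From the labels it is not clear if 1 or 2 hairpin sequences were used, nor if libraries came from separate cultures, so p-values measure only the spread between these libraries, which may be technical. All samples, the control included, received cycloheximide at 100 ug/ml for 3 min, per the labels. Cells labelled as control also gave 1 immunoprecipitate of YTHDF1-bound RNA (RIP) with 1 input, and 2 m6A-seq replicates. The sources do not say how the hairpins were delivered or whether the cells were 1 clone.

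The deposited values are a relative abundance per gene whose unit is not named, so read depth is unknown. Over the listed genes, footprint values summed to between 938928 and 1227324 per library and mRNA values to between 339763 and 345044. YTHDF1 itself had mRNA values of 27.4 for the control, then 8.62 and 7.81 for knockdown 1 and 2. Of 10 epithelial and colorectal markers 6 were in the table, all above 0 in every library, with summed mRNA values of 3403 to 5499. Of 10 fibroblast markers 4 were in it, with summed mRNA values of 7.97 to 12.3. The only blood cell marker in it, of 10, was CD68, with mRNA values of 4.98 to 19.9 and footprint values of 9485 to 15090, and its part in the footprint totals was not tested. Marker genes missing from the table have no value here. In bulk samples such as these, fewer cells of a type and less RNA per cell cannot be told apart.

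Promoters are shown because ATF4 is known to act at C/EBP-ATF response elements in its target genes, of which the asparagine synthetase element is the classic example. RefSeq promoter windows (GRCh38.p14, 250 bases before to 50 after a start) were found for all 10 genes, in 16 windows. The 8-letter form TGATGNAA, searched on both strands, was in 3 of the 16 windows (3 of the 10 genes), beside 3.62% of all 35116 windows. The CRE form TGACGTCA, which reads the same on both strands, was in 1 of the 16, a window of PPP1R15A, beside 1.85% of all windows. Stretches around the matches follow, 5′ to 3′ on the strand of the gene, with the match in capitals.
ASNS (chr7:97872419-97872526, minus strand, match 68 to 61 bases before 1 of its listed starts): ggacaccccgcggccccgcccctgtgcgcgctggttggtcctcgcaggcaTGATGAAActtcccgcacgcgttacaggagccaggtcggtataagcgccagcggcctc
ATF3 (chr1:212565166-212565273, plus strand, match 191 to 184 bases before the start): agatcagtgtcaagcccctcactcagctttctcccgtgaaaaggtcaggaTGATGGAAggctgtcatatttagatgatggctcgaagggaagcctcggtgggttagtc
PPP1R15B (chr1:204411987-204412067, minus strand, match 227 to 220 bases before the start): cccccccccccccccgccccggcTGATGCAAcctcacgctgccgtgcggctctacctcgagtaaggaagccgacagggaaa
PPP1R15A (chr19:48872313-48872420, plus strand, match 58 to 51 bases before the start): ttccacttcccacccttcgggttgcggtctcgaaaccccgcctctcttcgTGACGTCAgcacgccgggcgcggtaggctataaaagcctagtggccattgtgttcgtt
A match is a run of letters in these windows and not a measured binding site. No match says only that the letters are not in the window.

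ATF4, the transcription factor at the centre of the response (chromosome 22, 39520559 to 39522686), combined a steady mRNA with far fewer footprints after knockdown. Its footprint value was 720 for the control, then 213 and 131 for knockdown 1 and 2. Both knockdown libraries thus lay below the control, at 29.6% and 18.1% of it. Its mRNA value was 181 for the control, then 168 and 196 for knockdown 1 and 2, so the control lay between the knockdown libraries. The footprint mean in the knockdown was 172 ± 58.5 (SD, n = 2), and the mRNA mean 182 ± 19.8 (SD, n = 2).

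Changes were estimated as log2(value + 1), which understates the change of low genes, in a limma model over all 6782 genes. The model had 1 mean per assay and condition, and each gene had 1 spread shared by footprints and mRNA. For ATF4 the footprint change was -2.10 ± 0.37 (SE), and the mRNA change was 0.00 ± 0.37. Translational efficiency is the ratio of footprints to mRNA, and its change was -2.10 ± 0.53. None passed the threshold of 0.05 after Benjamini-Hochberg adjustment over all genes in limma, with adjusted p = 0.445 for footprints, 1.00 for mRNA and 0.996 for efficiency, and unadjusted p = 0.00106, 0.999 and 0.00632. The median footprint change of all genes was -0.28, so ATF4 stood at -1.82 relative to it. In all, 82 of the 6782 genes had a lower footprint change and 89 a lower efficiency change. Each of these values rests on 1 control library, and RefSeq names 4 pseudogene copies of ATF4, whose share of the reads was not tested.

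**Figure D1:**
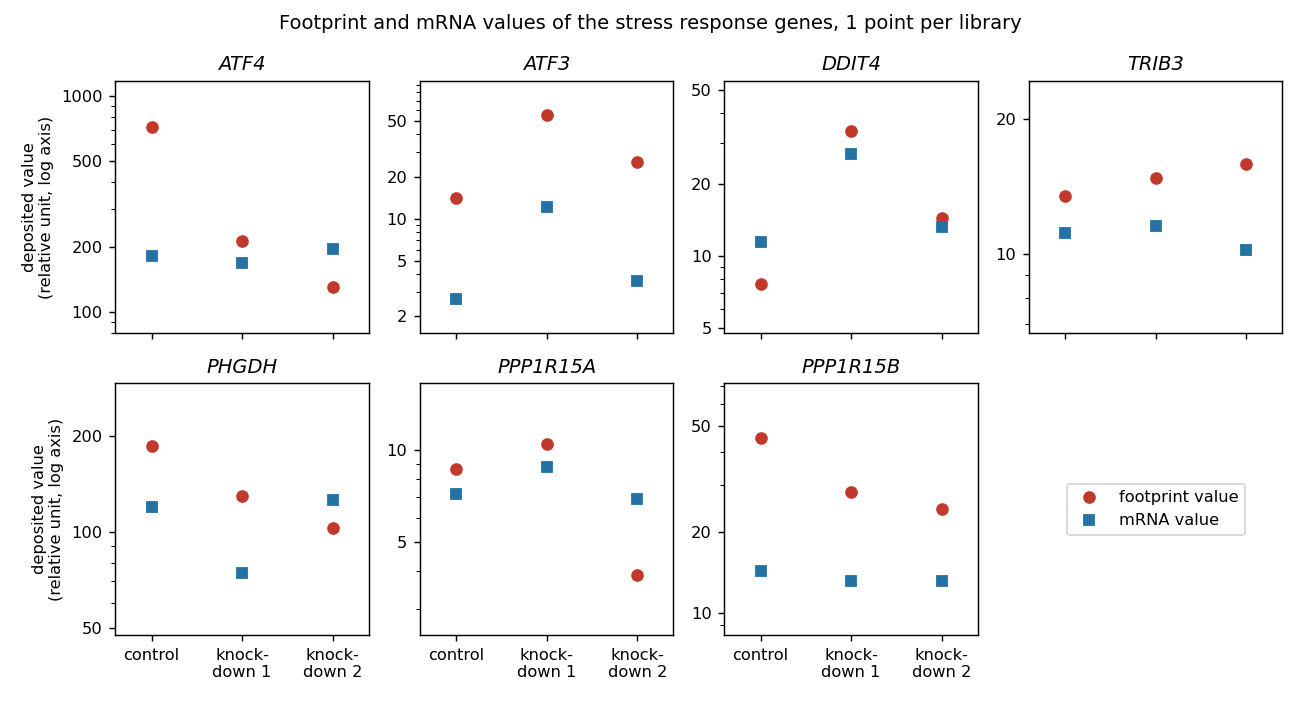
Deposited footprint values (circles) and mRNA values (squares) of the 7 genes in the expression table, on log axes in a relative unit, with 1 point per library. ATF4 footprints go from 720 in the control to 213 and 131 while its mRNA values stay between 168 and 196, and ATF3 and DDIT4 are higher in both knockdown libraries in both assays.

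ATF3 and DDIT4 had higher values in both knockdown libraries, though neither passed the test. ATF3, a stress-induced transcription factor (chromosome 1, 212565407 to 212620777), had footprint values of 14.2 for the control, then 55.3 and 25.5 for knockdown 1 and 2. Its mRNA values were 2.66, 12.1 and 3.60 in the same order. Both knockdown libraries were above the control in each assay, and knockdown 1 was the higher of them in each. The log2 changes were 1.35 ± 0.76 (SE) in footprints and 1.09 ± 0.76 in mRNA, with limma adjusted p = 0.602 and 1.00.

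DDIT4, an inhibitor of mTORC1 signalling also known as REDD1 (chromosome 10, 72273924 to 72276036), showed a similar order of libraries. Its footprint values were 7.66 for the control, then 33.7 and 14.4 for knockdown 1 and 2. Its mRNA values were 11.4, 26.7 and 13.3. Again both knockdown libraries were above the control in each assay. The changes were 1.42 ± 0.65 (SE) in footprints and 0.68 ± 0.65 in mRNA, with limma adjusted p = 0.575 and 1.00.

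For ATF3 and DDIT4 the size of the difference depended on the library. In knockdown 1 ATF3 footprints were 3.90 times and ATF3 mRNA 4.56 times the control, while in knockdown 2 these ratios were 1.80 and 1.36. DDIT4 stood at 4.40 times in footprints and 2.33 times in mRNA in knockdown 1, and at 1.88 and 1.16 times in knockdown 2. ATF4 footprints, by contrast, lay further from the control in knockdown 2. Knockdown 2 had the lower footprint value of the 2 for ATF4 as for ATF3 and DDIT4. Being above the control in both libraries of both assays applied to these 2 of 7 genes and to 7.05% of all tested genes.

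TRIB3, a pseudokinase that binds ATF4 and restrains its activity (chromosome 20, 380760 to 397559), had the smallest footprint change of the 7 genes. Footprint values were 13.5 for the control, then 14.8 and 15.9 for knockdown 1 and 2, and mRNA values were 11.1, 11.5 and 10.2. The footprint libraries of the knockdown were both above the control, and the mRNA libraries lay on opposite sides of it. The changes were 0.17 ± 0.42 (SE) in footprints and -0.03 ± 0.42 in mRNA, with limma adjusted p = 0.908 and 1.00. Relative to the median of all genes the footprint change was 0.45, larger in size than the -0.08 of PPP1R15A and the -0.41 of PHGDH.

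PHGDH, the first enzyme of serine synthesis (chromosome 1, 119711934 to 119744215), was the only one of the 3 listed amino acid enzymes in the table. Its footprint values were 186 for the control, then 129 and 103 for knockdown 1 and 2. Its mRNA values were 120, 74.3 and 126. Footprints were below the control in both knockdown libraries, and mRNA was below it in knockdown 1 and above it in knockdown 2. The changes were -0.69 ± 0.40 (SE) in footprints and -0.31 ± 0.40 in mRNA, with limma adjusted p = 0.604 and 1.00. ASNS, which makes asparagine (chromosome 7, 97851677 to 97928441), and PSAT1, the aminotransferase that follows PHGDH (chromosome 9, 78297125 to 78330093), were the other enzymes listed.

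The 2 regulatory subunits that direct protein phosphatase 1 to eIF2 gave unlike values. PPP1R15B, the constitutive subunit also known as CReP (chromosome 1, 204395826 to 204411817), had footprint values of 45.0 for the control, then 28.4 and 24.5 for knockdown 1 and 2. Its mRNA values were 14.4, 13.2 and 13.2, so that both assays lay below the control, footprints at 63.0% and 54.3% of it and mRNA at 91.6% and 91.4%. The changes were -0.75 ± 0.39 (SE) and -0.12 ± 0.39, with limma adjusted p = 0.577 and 1.00.

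PPP1R15A, the stress-induced subunit also known as GADD34 (chromosome 19, 48872421 to 48876058), had footprint values of 8.63 for the control, then 10.5 and 3.89 for knockdown 1 and 2. Its mRNA values were 7.17, 8.81 and 6.90. The knockdown libraries thus lay on opposite sides of the control in both assays. The changes were -0.36 ± 0.63 (SE) and 0.11 ± 0.63, with limma adjusted p = 0.853 and 1.00, and the footprint change is 0.25 from knockdown 1 alone and -0.98 from knockdown 2 alone.

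Over the 7 genes, limma called 0 in footprints at adjusted p under 0.05, where 0.0295% of all genes were called lower and 0.0% higher. It called 0 in mRNA and 0 in efficiency, where 0.0% of all genes were called in each direction. At unadjusted p under 0.05 the count was 1 in footprints (ATF4, lower, where 6.99% of all genes were lower and 1.86% higher), 0 in mRNA (0.295% and 0.177%) and 1 in efficiency (ATF4, lower, where 2.14% were lower and 0.59% higher). Footprints were below the control in both libraries for 3 genes (ATF4, PHGDH and PPP1R15B) against 51.2% of all genes, and above it for 3 (ATF3, DDIT4 and TRIB3) against 17.5%. In mRNA 2 genes were above the control in both libraries against 30.9% of all genes, and 1 was below it (PPP1R15B) against 29.9%. The median changes of the 7 genes were -0.36 in footprints, 0.00 in mRNA and -0.38 in efficiency, beside -0.28, -0.01 and -0.27 for all genes. The 7 genes therefore did not stand to one side as a list, and their footprint changes ran from -2.10 to 1.42. YTHDF1, the target of the knockdown, did not pass the adjusted threshold either. Its changes were -1.69 ± 0.40 (SE) in footprints and -1.62 ± 0.40 in mRNA. In limma its adjusted p was 0.552 and 0.99995, and its unadjusted p 0.00456 and 0.00549. A gene that missed the adjusted threshold here is thus not shown to be unchanged.

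**Figure D2:**
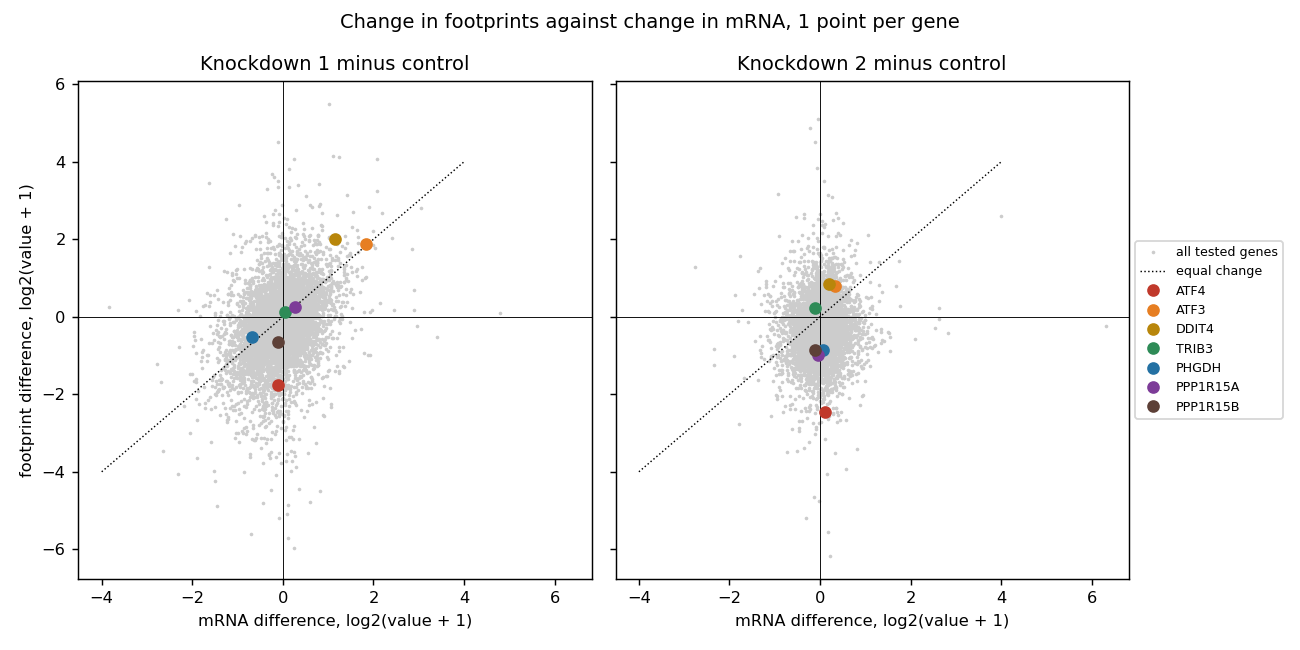
Footprint difference from the control (y axis) against mRNA difference (x axis), both on the log2(value + 1) scale, for knockdown 1 (left) and knockdown 2 (right), with all tested genes in grey and the 7 genes in colour. ATF4 sits at mRNA differences of -0.11 and 0.11 with footprint differences of -1.75 and -2.46, well below the dotted line of equal change, whereas ATF3 in knockdown 1 sits on that line at 1.84 and 1.89.

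Translational efficiency in the control was compared between genes as the ratio of the footprint to the mRNA value, in which gene length cancels only if both values count the same part of the transcript. The sources used here do not state that part, nor whether footprints on upstream reading frames were counted. The median ratio of all genes was 2.32, with quartiles of 1.10 and 4.54. In descending order the ratios were 5.34 for ATF3, 3.97 for ATF4, 3.12 for PPP1R15B, 1.55 for PHGDH, 1.213 for TRIB3, 1.205 for PPP1R15A and 0.669 for DDIT4. Thus 3 of the 7 genes lay above the median of all genes. With 1 library per assay there is no spread behind this order, and neighbours such as TRIB3 and PPP1R15A cannot be ranked.

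After knockdown ATF4 moved most in this ranking. Its ratio was 3.97 in the control, 1.27 with the libraries numbered 1 and 0.666 with those numbered 2, which placed it at the 70.7th, 31.9th and 18.7th percentile of all genes with values above 0. DDIT4 went the other way, from the 14.4th percentile to the 31.7th and 32.5th. ATF3 stayed high, at the 80.2nd, 80.4th and 92.7th. PPP1R15B stood at the 61.9th, 52.1st and 52.7th. TRIB3 stood at the 27.7th, 32.2nd and 45.8th, PHGDH at the 35.7th, 43.6th and 23.9th, and PPP1R15A at the 27.5th, 29.7th and 15.3rd. By this measure ATF4 was the 1 gene of the 7 that was above the median of all genes in the control and below it in both knockdown pairs. The labels do not say that equal numbers mark the same culture.

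The efficiency changes in limma were 0.74 ± 0.92 (SE) for DDIT4, 0.26 ± 1.07 for ATF3, 0.20 ± 0.60 for TRIB3, -0.38 ± 0.57 for PHGDH, -0.47 ± 0.89 for PPP1R15A and -0.63 ± 0.55 for PPP1R15B. All had adjusted p = 0.996, and no interval of 1 SE among PHGDH, PPP1R15A and PPP1R15B was clear of the median of all genes, -0.27. On the log2(value + 1) scale, efficiency was lower in both numbered pairs for 3 genes (ATF4, PPP1R15A and PPP1R15B) against 52.0% of all genes. Efficiency was higher in both for 3 (ATF3, DDIT4 and TRIB3) against 18.7%. In the pair numbered 1 the PPP1R15A difference was only -0.012. The ATF3 difference there was 0.05, and its plain ratio was below the control (4.57 against 5.34). The DDIT4 change was 0.16 without footprint knockdown 1, below the 0.25 of TRIB3, and 0.26 without mRNA knockdown 2. It was 1.33 without footprint knockdown 2 and 1.22 without mRNA knockdown 1.

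**Figure D3:**
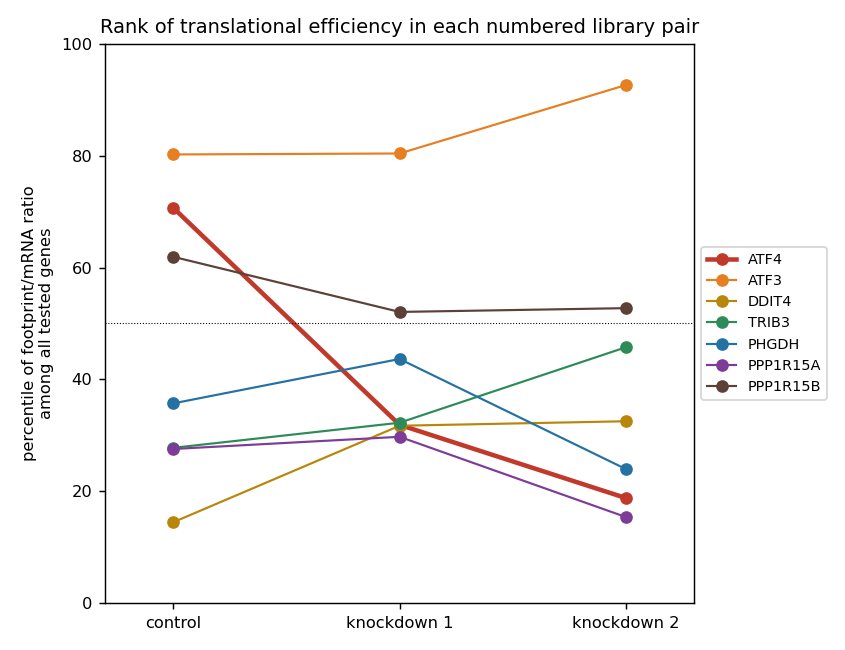
Percentile of the footprint to mRNA ratio among all tested genes (y axis) in the control and in the libraries numbered 1 and 2 of the knockdown (x axis), with 1 line per gene and the dotted line at the median. ATF4 runs from 70.7 to 31.9 and 18.7, while ATF3 stays at or above 80.2.

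The rest of the pathway was described by a list of 81 other genes in 9 groups, of which 56 were tested. In limma 0 of the 56 passed in footprints, mRNA or efficiency at adjusted p under 0.05, and at unadjusted p under 0.05 there were 8 in footprints (7 lower and 1 higher, beside 6.99% and 1.86% of all genes), 0 in mRNA and 2 in efficiency (both lower, beside 2.14%). Of the 56, 25 were below the control in both footprint libraries and 8 above it, beside 51.2% and 17.5% of all genes. Their median footprint change was -0.23, close to the -0.28 of all genes, and their median mRNA change was -0.02.

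Among the kinases of eIF2, EIF2AK2 (PKR, which senses double-stranded RNA) had footprint values of 149 for the control, then 105 and 101 for knockdown 1 and 2, with mRNA values of 11.0, 10.3 and 14.7. EIF2AK4 (GCN2, which senses amino acid shortage) had footprint values of 17.9, 34.5 and 20.9 and mRNA values of 14.1, 19.4 and 13.3. EIF2AK3 (PERK, the kinase of the endoplasmic reticulum) had footprint values of 3.56, 7.92 and 2.12 and mRNA values of 8.67, 16.0 and 9.62. Only PKR lay below the control in both footprint libraries, and only GCN2 above it, while PERK lay on both sides. EIF2AK1, the haem-regulated kinase, was not in the table. None of the 3 tested kinases had an unadjusted p under 0.05 in limma.

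Of 7 tested subunits of eIF2 and its exchange factor eIF2B, 3 were below the control in both footprint libraries and 1 above it. EIF2S2, the beta subunit of eIF2, stood at 138 in control footprints, against 65.7 and 68.7 after knockdown, with mRNA values of 33.2, 28.6 and 32.8 (limma adjusted p = 0.552). EIF2S1, the subunit that is phosphorylated, stood at 609, 585 and 485 in footprints. Of the catalytic subunits of protein phosphatase 1, PPP1CC lay below the control in both footprint libraries, at 873, 702 and 764, and PPP1CA lay on both sides, at 675, 703 and 472.

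Among amino acid genes the values went both ways. SLC1A5, a glutamine transporter, had footprint values of 153 for the control, then 54.3 and 69.2 for knockdown 1 and 2, with mRNA values of 107, 71.9 and 99.2 (limma adjusted p = 0.552). ALDH18A1, which starts proline synthesis, had footprint values of 89.2, 37.3 and 46.9 and mRNA values of 44.7, 41.8 and 43.1 (adjusted p = 0.552 in limma). GOT1, the cytosolic aspartate aminotransferase, was higher, at 108, 204 and 174 in footprints with mRNA at 40.2, 40.9 and 45.5 (adjusted p = 0.560 in limma). The mitochondrial one-carbon enzymes SHMT2 and MTHFD2 had footprint changes of -0.27 and 0.28. SLC7A5, another transporter, and the enzyme PCK2 lay below the control in both libraries of both assays. Their footprint changes were -0.61 and -0.87, and their mRNA changes -0.52 and -0.61. Of 7 tested transporters 0 lay above the control in both footprint libraries and 3 lay below it. In mRNA 1 of the 7 lay above and 4 below, beside 30.9% and 29.9% of all genes. Of 5 tested enzymes of proline, alanine and sulphur amino acids 3 lay above in footprints and 2 below.

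Of 12 other ATF4 targets 4 lay below the control in both footprint libraries and 0 above it, beside 51.2% and 17.5% of all genes. On opposite sides of it lay 8. Their median footprint change was -0.02, beside -0.28 for all genes, and the changes ran from -2.32 to 0.65. In mRNA 6 of the 12 lay above the control in both libraries and 0 below it, beside 30.9% and 29.9% of all genes. Efficiency was lower in both numbered pairs for 9 and higher for 0, beside 52.0% and 18.7%. The targets named next are among the lower ones. WARS, the tryptophanyl-tRNA synthetase, had footprint values of 609 for the control, then 132 and 111 for knockdown 1 and 2, with mRNA values of 70.7, 54.0 and 76.5. Its footprint change was -2.32 ± 0.35 (SE, limma adjusted p = 0.344). XPOT, a tRNA exporter, and LONP1, a mitochondrial protease, had changes of -1.05 and -0.82. ATF5, from the group of ATF4 partners and related factors, is a transcription factor whose mRNA also has upstream reading frames. It stood at 56.99, 29.6 and 39.8 in footprints and at 16.6, 10.9 and 22.7 in mRNA. Its footprint change was -0.72 ± 0.52 (SE, limma adjusted p = 0.656).

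**Figure D4:**
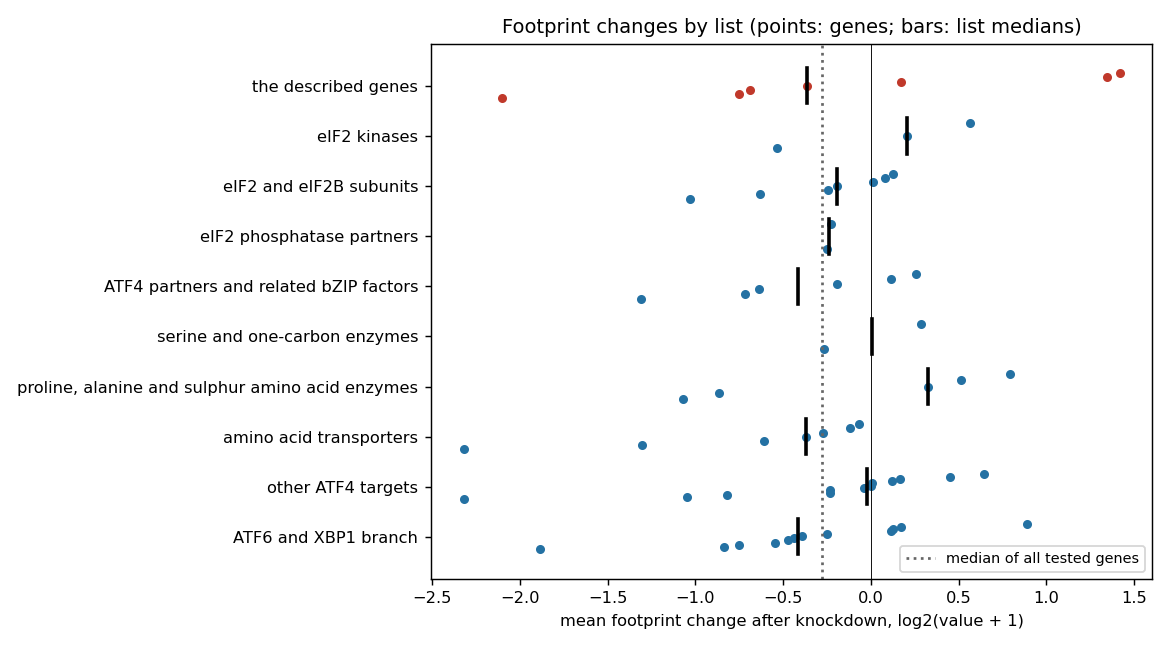
Mean footprint change after knockdown on the log2(value + 1) scale (x axis) for each tested gene of the 7 described genes (top) and the 9 other pathway groups, with bars at the medians and a dotted line at the median of all tested genes, -0.28. Each group with 5 or more genes has members on both sides of the dotted line, and ATF4 at -2.10 and WARS at -2.32 are among its leftmost points.

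The genes most like ATF4 were sought over 4 differences (knockdown 1 and 2 minus the control, in footprints and in mRNA), among 5086 genes whose mean level reached the lower quartile. The smallest root mean square difference belonged to WARS, at 0.26. MAP2K7, a kinase that activates JNK, followed at 0.28, then TRDMT1, a tRNA methyltransferase, at 0.32, DOCK1 at 0.34 and ZC3H18 at 0.37. For DDIT4, which had the most positive efficiency change of the 7 genes with all libraries in the fit, the nearest were POLE4 at 0.26, TAF13 at 0.28, and HHLA3 and NCBP3 at 0.30. These distances describe 6 libraries that share their controls.

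RNA recovered with the YTHDF1 antibody was deposited as a list of 3931 usable genes with FPKM, a value per length and depth, and a ratio to input of at least 1.5. Of the 10 genes 4 were listed (ATF3, DDIT4, PPP1R15A and PPP1R15B). All 4 also had expression values, so this is 4 of 7 beside 35.6% of all tested genes. ATF4, DDIT3, TRIB3, ASNS, PSAT1 and PHGDH were not listed. With 1 RIP and 1 input library there is no spread and no test.

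The 4 ratios, which are the authors' own, were modest within that list, whose median was 2.28. PPP1R15A stood at 175 FPKM in the RIP and 86.4 in the input, a ratio of 2.02. PPP1R15B had the same rounded ratio, from 14.9 and 7.38 FPKM. DDIT4 stood at 88.2 and 45.5 FPKM, a ratio of 1.94, and ATF3 at 10.7 and 6.54 FPKM, a ratio of 1.64. Their places among 3931 ratios from the top were 2468, 2478, 2678 and 3503, all below the middle of the list. The RIP list therefore holds both genes with higher and genes with lower footprints after knockdown, and not ATF4. Levels in the RIP input and in control mRNA did not rank these 4 genes alike, though ATF3 was lowest in both (6.54 FPKM and 2.66). PPP1R15A stood above PPP1R15B in the input (86.4 and 7.38 FPKM) and below it in control mRNA (7.17 and 14.4). The cause was not tested.

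The m6A lists hold windows along an unnamed transcript, called per replicate by the authors, each with a signal in immunoprecipitate and input, a nearby 5-base motif and, except for 460 windows of replicate 1 and 422 of replicate 2, a peak over input ratio of at least 3. Of the 10 genes 9 had a window in replicate 1 and 7 in replicate 2, and all 7 had windows that overlapped by at least 1 base. ATF4 had none in either replicate. ATF3 and PPP1R15A had 1 each in replicate 1 only. Of the 7 genes with expression values 4 had a window in both replicates (DDIT4, TRIB3, PHGDH and PPP1R15B), beside 72.5% of all tested genes, and the same 4 had an overlapping one, beside 70.5%. In total there were 22 windows in replicate 1 and 13 in replicate 2, and 13 in each overlapped the other replicate. The lists give the same input signal in both replicates for all 5972 windows with equal borders, so the replicates are separate in the immunoprecipitate but not shown to be so in the input.

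DDIT3, which encodes the pro-apoptotic factor CHOP (chromosome 12, 57516588 to 57520517), had the highest ratios among overlapping windows. Its window at 750 to 950 had ratios of 16.1 in replicate 1 and 16.5 in replicate 2, at the 90.8th and 91.6th percentile of each list, with the motif AAACA at 756. ASNS had a window at 2000 to 2150 with a ratio of 14.6 in replicate 1 and one at 1925 to 2150 with 4.68 in replicate 2, both with AAACC at 2060. Their input signals were 52.1 and 181, so the ratios of ASNS come from windows of different width. A second ASNS window at 250 to 350, with AGACT at 292 and a ratio of 15.3, was listed in replicate 1 only.

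PPP1R15B carried the widest windows. It had 5 in replicate 1 and 3 in replicate 2. The window at 875 to 1375, with GGACT at 1063, had ratios of 9.32 and 5.03, from immunoprecipitate signals of 5985 and 3229 over the same input of 642. The window at 350 to 800 in replicate 1, with GGACA at 390, had a ratio of 10.1, and that at 375 to 800 in replicate 2, with AAACT at 572, had 5.10. A window at 4750 to 4825 had 3.42 and 3.20. Those at 0 to 150, with a ratio of 11.6 and AAACC at 66, and at 2375 to 2500, with 5.63 and AAACA at 2412, were in replicate 1 only.

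The serine pathway genes each had overlapping windows. PHGDH had 5 windows in replicate 1 and 3 in replicate 2. Its strongest overlapping windows were at 1775 to 1875 in replicate 1 and 1800 to 1850 in replicate 2, with ratios of 9.07 and 9.48 and the motif AAACC at 1780, and at 950 to 1000 and 925 to 1025, with ratios of 7.03 and 11.1 and GGACC at 954. PSAT1 had 2 in each replicate. Near the start, at 25 to 100 and 50 to 100, the ratios were 9.95 and 9.41, while the given AGACT at 157 lies outside these windows. The PSAT1 windows at 250 to 400 and 225 to 400, with AGACA at 268, had ratios of 5.54 and 4.19.

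TRIB3 and DDIT4 had lower ratios. TRIB3 windows at 1225 to 1325 and 1200 to 1325 had 5.62 and 5.26, with GGACC at 1348. The adjoining TRIB3 windows from 1350, with GGACT at 1412, have no ratio because the input signal is listed as 0. DDIT4 had a window at 800 to 975 in both replicates, with GAACA at 873 and ratios of 3.74 and 3.50. ATF3 had a single window, at 550 to 900 in replicate 1, with AAACC at 868 and a ratio of 6.91, and PPP1R15A one at 1800 to 1850, with a ratio of 14.4 on an input signal of 11.9.

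All 12 possible forms of the motif (A or G, A or G, A, C, then A, C or T) occur in these lists, and the given position lay inside the window for 80.9% of all windows of replicate 1 and for 16 of the 22 windows of these genes. The form beginning GGAC was given for 7 of the 22 windows, beside 30.7% of all windows, and AAACC for 6, beside 6.04%. In replicate 2 GGAC was given for 5 of the 13 windows, beside 29.5%, and AAACC for 2, beside 6.48%. The AAACC windows of ATF3, PPP1R15A and PPP1R15B in replicate 1, and that of PHGDH at 1650 to 1750, had no overlapping window in replicate 2. Windows of 1 gene share a transcript and PHGDH gives AAACC for 2 neighbouring windows, so these are descriptions.

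**Figure D5:**
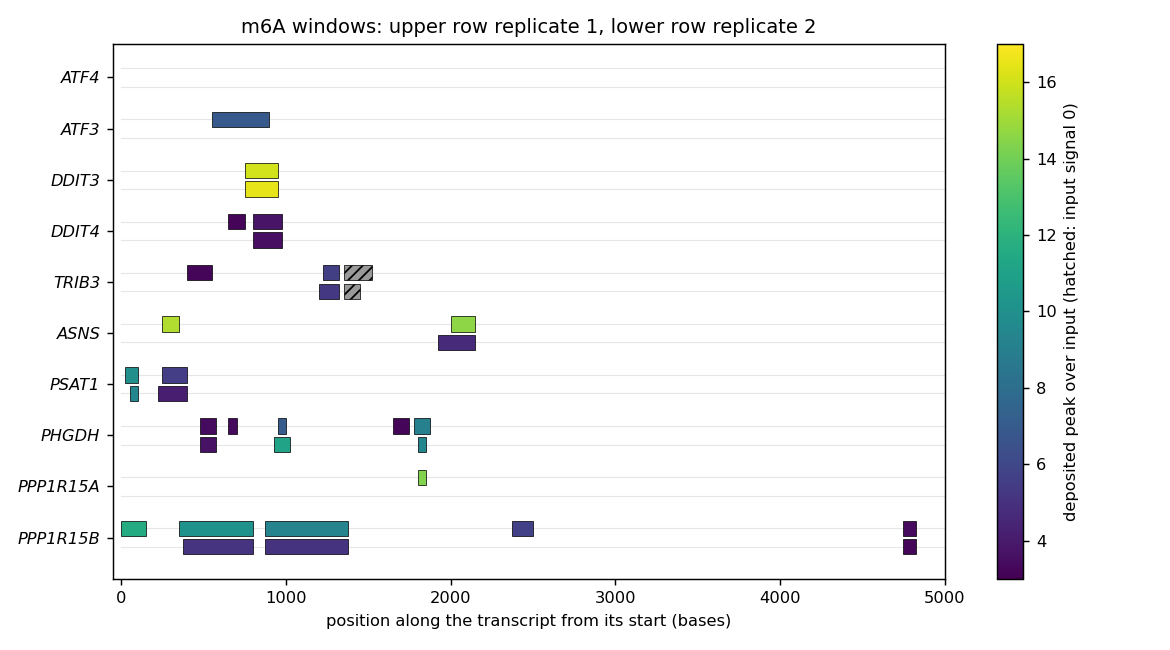
m6A windows of the 10 genes by position from the transcript start in bases (x axis), replicate 1 above and replicate 2 below for each gene, coloured by the deposited ratio of peak over input, with hatching where the input signal is 0. DDIT3 has 1 window at 750 to 950 in both replicates with ratios of 16.1 and 16.5, PPP1R15B has the widest windows, and the ATF4 rows are empty.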

How the data were processed

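Footprints and mRNA were measured in 3 HCT116 libraries each, RIP in 1 with 1 input and m6A in 2. STAR and GRCh38 are named, per the submitters' processing notes, with no aligner version (not given in the sources used here). For expression, the authors deposited a relative signal per gene whose unit the header does not name. Every control value is at least 0.5, so genes were listed on the control. RIP values are FPKM with a ratio, and m6A windows have a signal and a ratio, as deposited by the authors. The depth is unknown.

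Rows with damaged names were left out (12 of the expression values, 8 of the RIP list), and genes with a mean log2(value + 1) of at least 1 were tested in limma 3.58.1 (R 4.3.3), with a trend, 1 mean per assay and condition and 2 residual degrees of freedom. Since each assay has 1 control, its spread was taken to equal that of the knockdown libraries. Both assays shared 1 spread per gene, so a gene has the same SE in footprints and mRNA. The median SD between knockdown libraries was 0.354 in footprints and 0.225 in mRNA on the log2(value + 1) scale. The p-values and shares called in the 2 assays therefore depend on this sharing. Tests were 2-sided, and p-values were adjusted by Benjamini-Hochberg over 6782 genes. The fit was tested on simulated data. Genes were named as all 10 genes, all eIF2 kinases, and, per other group, genes past the threshold and up to 3 with the largest absolute footprint change among those whose knockdown libraries lay on the same side of the control, with a mean level reaching the lower quartile. PPP1CA was named after its values were seen. Alternatives covered scaling, pseudocount, filter, left-out libraries, a replicate block and separate fits. The 10 genes and the lists were chosen with earlier results of these data known.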

Additional observations from a re-analysis of the deposited data

How the results depend on the processing

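Of 21 results on single genes (7 genes in 3 contrasts), 8 values changed sign, all when 1 library was left out, and 215 kept both direction and side of the threshold. The ATF4 footprint change ranged from -2.46 (without knockdown 1) to -1.75 (without knockdown 2), with limma adjusted p from 0.0223 to 0.661, and was -1.81 with median centring. Without knockdown 1, footprint changes were 0.81 for ATF3 and 0.83 for DDIT4. Results that changed sign ranged, with 1 library left out, from -0.98 to 0.25 for PPP1R15A footprints (0.25 without knockdown 2), from -0.11 to 0.11 for ATF4 mRNA and -0.11 to 0.048 for TRIB3 mRNA (-0.11 and 0.048 without mRNA knockdown 2), and from -0.69 to 0.065 for PHGDH mRNA and -0.048 to 0.26 for PPP1R15A mRNA (0.065 and -0.048 without mRNA knockdown 1). Efficiency ranged from -0.49 to 1.02 for ATF3 (-0.28 without footprint knockdown 1, -0.49 without mRNA knockdown 2) and from -1.09 to 0.14 for PPP1R15A (0.14 without footprint knockdown 2). The cause was not tested beyond the missing library.

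With the replicate number as a block, limma called 1 of the 7 genes in footprints, ATF4 (adjusted p = 0.0223), and 30 of all genes, against 0 and 2 without it. The block gave 2 genes in mRNA and 6 in efficiency, where the fit without it gave 0, and ATF4 efficiency had adjusted p = 0.295. The labels do not state that the numbers pair cultures, though the difference between knockdown libraries correlated at 0.37 across genes between the assays. Over all genes the footprint count was 0 with median centring, quantile normalisation, pseudocount 0.5 or no filter, and 2 to 80 with a library left out (8 without footprint knockdown 1, 80 without footprint knockdown 2). With a library left out, the mRNA and efficiency counts were 0 to 1, each 1 without mRNA knockdown 1. At a minimum RIP ratio of 2, 2 genes stayed listed (PPP1R15A and PPP1R15B), and at a minimum m6A ratio of 5, 5 genes kept an overlapping window. Unknown depth limits all values of low genes such as ATF3 mRNA.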

Other observations

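The branch of the unfolded protein response run by ATF6 and XBP1, which raises chaperones of the endoplasmic reticulum, was listed beside the stress response. Of 12 tested genes 7 lay below the control in both footprint libraries and 2 above it, beside 51.2% and 17.5% of all genes. In mRNA 8 of the 12 lay below the control in both libraries and 3 above it, beside 29.9% and 30.9% of all genes. The median mRNA change of the 12 was -0.18, beside -0.01 for all genes. Their median efficiency change was -0.12, beside -0.27. Their footprint changes had a median of -0.42, with 0 limma calls at adjusted p under 0.05 and 1, lower, at unadjusted p under 0.05, beside 6.99% of all genes. HSP90B1, the chaperone GRP94, had footprint values of 2266 for the control, then 508 and 737 for knockdown 1 and 2, with mRNA values of 232, 216 and 289, and its limma adjusted p was 0.491 in footprints. HERPUD1, a protein of reticulum-associated degradation, was higher, at 58.7, 154 and 78.3 in footprints and 30.2, 32.9 and 39.0 in mRNA. SDF2L1, a reticulum chaperone partner, stood at 16.9, 9.88 and 9.37 in footprints and 140, 105 and 104 in mRNA.

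In the RIP list 24 of the 56 tested pathway genes appeared, beside 35.6% of all tested genes. The deposited ratios were 3.47 for EIF2AK4, 2.87 for EIF2AK3, 3.46 for AARS, the alanyl-tRNA synthetase, and 2.99 for the arginine transporter SLC7A1. These are genes chosen here after their values were seen, all above the list median of 2.28. Other pathway genes on the list lay below that median, among them NARS at 1.59, GDF15 at 1.60 and EIF2B4 at 1.61. Windows of m6A in both replicates were listed for 50 of the 56, beside 72.5% of all tested genes.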
